A study of Mus musculus with 24 samples.

Results

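A set of 50 genes had higher RNA levels in mouse bone marrow neutrophils after IL4, after IGF1 and after LPS with IFNγ than in untreated cells. The members were chosen by measured values. A gene was taken when its group mean of log2(RPKM + 0.1), where RPKM is the read count scaled to transcript length and to the mapped reads of the library, lay at least 0.585 (1.5-fold) above the untreated mean in all 3 treated groups, when the lowest library of each treated group lay above the highest untreated library, and when the mean in IL4 was at least 0.5 RPKM. Of 48709 genes in the files, 10524 had such a level in IL4 and 55 met the whole rule. The rule leaves out 10 genes by name, and 5 of these met it (Cish, Socs1, Socs3, Il1rn and Egr2), which left 50 genes. The choice used the untreated, IL4, IGF1 and LPS/IFNγ libraries, so the differences of the members from untreated are given as a description, with no test.

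The neutrophils came from the bone marrow of C57Bl/6J mice, were enriched on a Percoll gradient and were cultured for 4 hours. They were left untreated or received IL4 at 20 ng/mL (the N2 stimulus of the study), IGF1 at 10 ng/mL, LPS at 10 ng/mL with IFNγ at 2 ng/mL (the N1 stimulus), or insulin at 10 or 100 ng/mL. There were 4 libraries per group and 24 libraries in the 6 groups. Every library carries the number 6, 9, 10 or 11 in its file, once per group, and libraries that share a number are called a preparation here. Values of a group are given in the order of preparations 6, 9, 10 and 11 throughout. No source used here ties a number to a single animal, so p-values measure the spread between these libraries.

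Libraries held 18748634 to 30925209 mapped reads. The summed level of 11 neutrophil markers was 89333 to 125544 RPKM, against 237 to 386 for 12 monocyte and macrophage markers, 104 to 301 for 10 B lineage markers, 8.0 to 25.5 for 9 T and NK cell markers, 7.90 to 41.0 for 7 basophil and mast cell markers, 1.08 to 2.20 for 6 dendritic cell markers and 123 to 206 for 6 proliferation genes. The 9 erythroid markers summed to 593 to 6159 RPKM and the 8 eosinophil markers to 1607 to 2744 RPKM. The sum of 6 megakaryocyte and platelet markers was 45.8 to 51.1 RPKM with IL4 and 44.9 to 54.5 RPKM with IGF1, above 14.5 to 22.6 RPKM in untreated and 6.16 to 8.39 RPKM in LPS/IFNγ libraries. Of these 6 genes, Itgb3, an integrin β chain of platelets, was called higher with IL4 and IGF1 and, with Gp1ba, lower with LPS/IFNγ than in untreated cells. The neutrophil marker Cxcr2 was called higher with IL4 (0.68) and IGF1 (0.66). With LPS/IFNγ 2 of 11 tested neutrophil markers, Mmp9 (-0.89) and Retnlg (-1.06), were called lower. So were 4 of 10 tested monocyte and macrophage markers, Ccr2 (-1.10), Cd68 (-1.20), Csf1r (-1.66) and Cx3cr1 (-2.35). Cd3d (-1.03) and Ncr1 (-0.65) of T and NK cells, Ccr3 (-1.32) of eosinophils and Flt3 (-1.01) of dendritic cells were also lower. Clec9a of dendritic cells was higher (1.10). Of all genes tested with LPS/IFNγ, 8.15% were called higher and 17.8% lower. The part of these markers in the results was not tested. In bulk RNA, fewer cells of a type and less RNA per cell cannot be told apart.

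The insulin 100 ng/mL library of preparation 11 stood apart for genes that LPS/IFNγ raises strongly and to high levels. For 16 genes with at least 100 RPKM and 50-fold above untreated in LPS/IFNγ, this library exceeded the other 3 insulin 100 ng/mL libraries by a median of 0.74% of the LPS/IFNγ level (0.29% to 1.08%). The members among them are Tgtp1 (0.87%), Ifi47 (0.78%) and Tgtp2 (0.73%). The cause was not tested, and insulin results for these genes are given with and without this library.

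IL4 binds a receptor whose associated Janus kinases activate the transcription factor STAT6. IFNγ acts through JAK1 and JAK2, while LPS activates NF-κB through Toll-like receptor 4, and IGF1 is best known for receptor tyrosine kinase signalling to PI3K, AKT and MAP kinases. STAT proteins bind the palindrome TTCNNNGAA, and STAT6 also binds the form with 4 bases between the same arms.

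The starts of the members were searched for these motifs, since both cytokine arms of the design activate STAT proteins. RefSeq windows (GRCm38.p6, 250 bases before to 50 after a gene start) were at hand for 39 of the 50 members, 6 of which had more than 1 start. TTCNNNGAA occurred in 8 of the 39 (20.5%), against 8.6% of 13895 measured genes with a window, and the form with the 4-base spacing in 4 (10.3% against 6.8%). The interferon-stimulated response element was in 4 members (10.3% against 3.8%), namely Il1rap, Tgm1, Tgtp1 and Tgtp2. The AP-1 motif TGANTCA was in 3 (7.7% against 7.2%), Bcl2a1a, Bcl2a1b and Rufy4, and the κB consensus in 5 (12.8% against 11.9%), Ada, Csf1, Ifi30, Serpina3g and Vmp1. Similar copies count as separate genes in these shares, namely Tgtp1 and Tgtp2, Serpina3f and Serpina3g, and Bcl2a1a and Bcl2a1b. The windows of Tgtp1 and Tgtp2 share a run of 27 bases, and those of Serpina3f and Serpina3g a run of 19. Both strands were read, any window of a gene counted, and a match is a description of letters, not of binding.

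The windows of 5 of the 8 members with TTCNNNGAA are shown, because 4 of them are called higher with LPS/IFNγ by large amounts and Tgm1 holds the palindrome at more than 1 place. They run 5′ to 3′ on the strand of the gene, with the palindrome in capitals.
Tgtp1 (chr11:48992197-48992496, minus strand): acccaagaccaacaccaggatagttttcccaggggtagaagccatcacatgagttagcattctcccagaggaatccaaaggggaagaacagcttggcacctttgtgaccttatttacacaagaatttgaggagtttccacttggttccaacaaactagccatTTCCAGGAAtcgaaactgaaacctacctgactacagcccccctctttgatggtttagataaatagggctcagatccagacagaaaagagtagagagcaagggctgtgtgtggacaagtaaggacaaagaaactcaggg
Tgtp2 (chr11:49064163-49064462, minus strand): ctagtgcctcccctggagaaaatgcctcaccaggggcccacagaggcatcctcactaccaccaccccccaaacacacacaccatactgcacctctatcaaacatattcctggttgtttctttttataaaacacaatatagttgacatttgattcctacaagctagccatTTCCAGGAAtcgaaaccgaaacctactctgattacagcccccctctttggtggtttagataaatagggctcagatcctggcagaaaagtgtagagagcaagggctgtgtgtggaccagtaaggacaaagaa
Serpina3f (chr12:104214294-104214593, plus strand): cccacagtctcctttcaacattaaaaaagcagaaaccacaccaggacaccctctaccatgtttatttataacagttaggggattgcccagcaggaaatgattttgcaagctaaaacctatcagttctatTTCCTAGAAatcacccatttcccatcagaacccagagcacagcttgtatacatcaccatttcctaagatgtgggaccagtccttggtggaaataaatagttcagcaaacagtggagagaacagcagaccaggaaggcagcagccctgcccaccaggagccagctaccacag
Serpina3g (chr12:104235897-104236196, plus strand): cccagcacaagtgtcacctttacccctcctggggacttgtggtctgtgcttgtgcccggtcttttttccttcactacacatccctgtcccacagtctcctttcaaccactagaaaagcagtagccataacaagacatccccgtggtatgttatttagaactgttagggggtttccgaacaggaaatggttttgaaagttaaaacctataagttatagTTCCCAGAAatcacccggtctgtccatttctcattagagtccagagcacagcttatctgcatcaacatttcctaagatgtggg
Tgm1 (chr14:55713443-55713742, minus strand): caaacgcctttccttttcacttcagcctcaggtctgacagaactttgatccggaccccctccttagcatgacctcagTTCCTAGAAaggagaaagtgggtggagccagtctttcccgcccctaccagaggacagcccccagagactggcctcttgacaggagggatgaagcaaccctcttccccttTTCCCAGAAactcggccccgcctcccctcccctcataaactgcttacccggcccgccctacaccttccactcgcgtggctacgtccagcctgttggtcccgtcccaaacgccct

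Tgtp1 and Tgtp2 hold the same 9 letters, TTCCAGGAA, which start at -88 and -81 from the gene start. Tgm1 holds both the Serpina3f letters, TTCCTAGAA, at -173 and the Serpina3g letters, TTCCCAGAA, at -64. The other members with the 3-base spacing are Ada (TTCCGGGAA at -90), Tnfrsf18 (TTCACAGAA at -99) and Pkib (TTCGGTGAA at -94 from the first of its 2 starts). The 4-base spacing was found in Clec7a (TTCTTCAGAA at -131), Sema4f (TTCTGAGGAA at -134), Plac8 (TTCCGGTGAA at -153 from another start of this gene) and at both starts of Pkib.

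**Figure D1:**
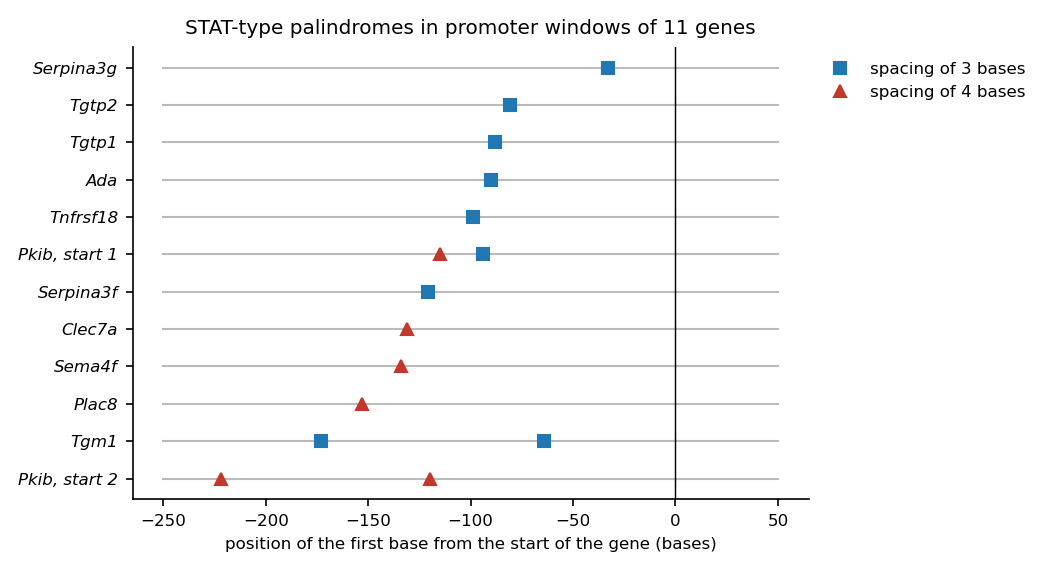
Positions of STAT-type palindromes in the promoter windows of 11 members, by distance in bases from the gene start. Squares mark TTCNNNGAA and triangles the form with 4 bases between the arms, and Pkib has a line for each of its 2 starts. The 15 matches all lie before the start, and the match of Serpina3g lies nearest to it, at -33.

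The members rose by similar amounts with IL4 and IGF1 and by a wider range of amounts with LPS/IFNγ. On the log2(RPKM + 0.1) scale, the median difference from untreated was 1.21 with IL4 (0.59 to 5.45), 1.19 with IGF1 (0.59 to 5.39) and 1.48 with LPS/IFNγ (0.62 to 9.77). Over the 10524 genes at the same IL4 level, the medians were 0.02, 0.02 and -0.25. The difference was at least 2 for 8 members with IL4, for 7 with IGF1 and for 18 with LPS/IFNγ. LPS/IFNγ gave the largest of the 3 differences for 31 members, IL4 for 11 and IGF1 for 8. The members closest to the threshold were Twsg1 (smallest difference 0.5922), Tars (0.5935) and Tnfrsf22 (0.6059), and just outside it lay Csf2rb (0.5847), Lcp2 (0.5692) and Picalm (0.5097).

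**Figure D2:**
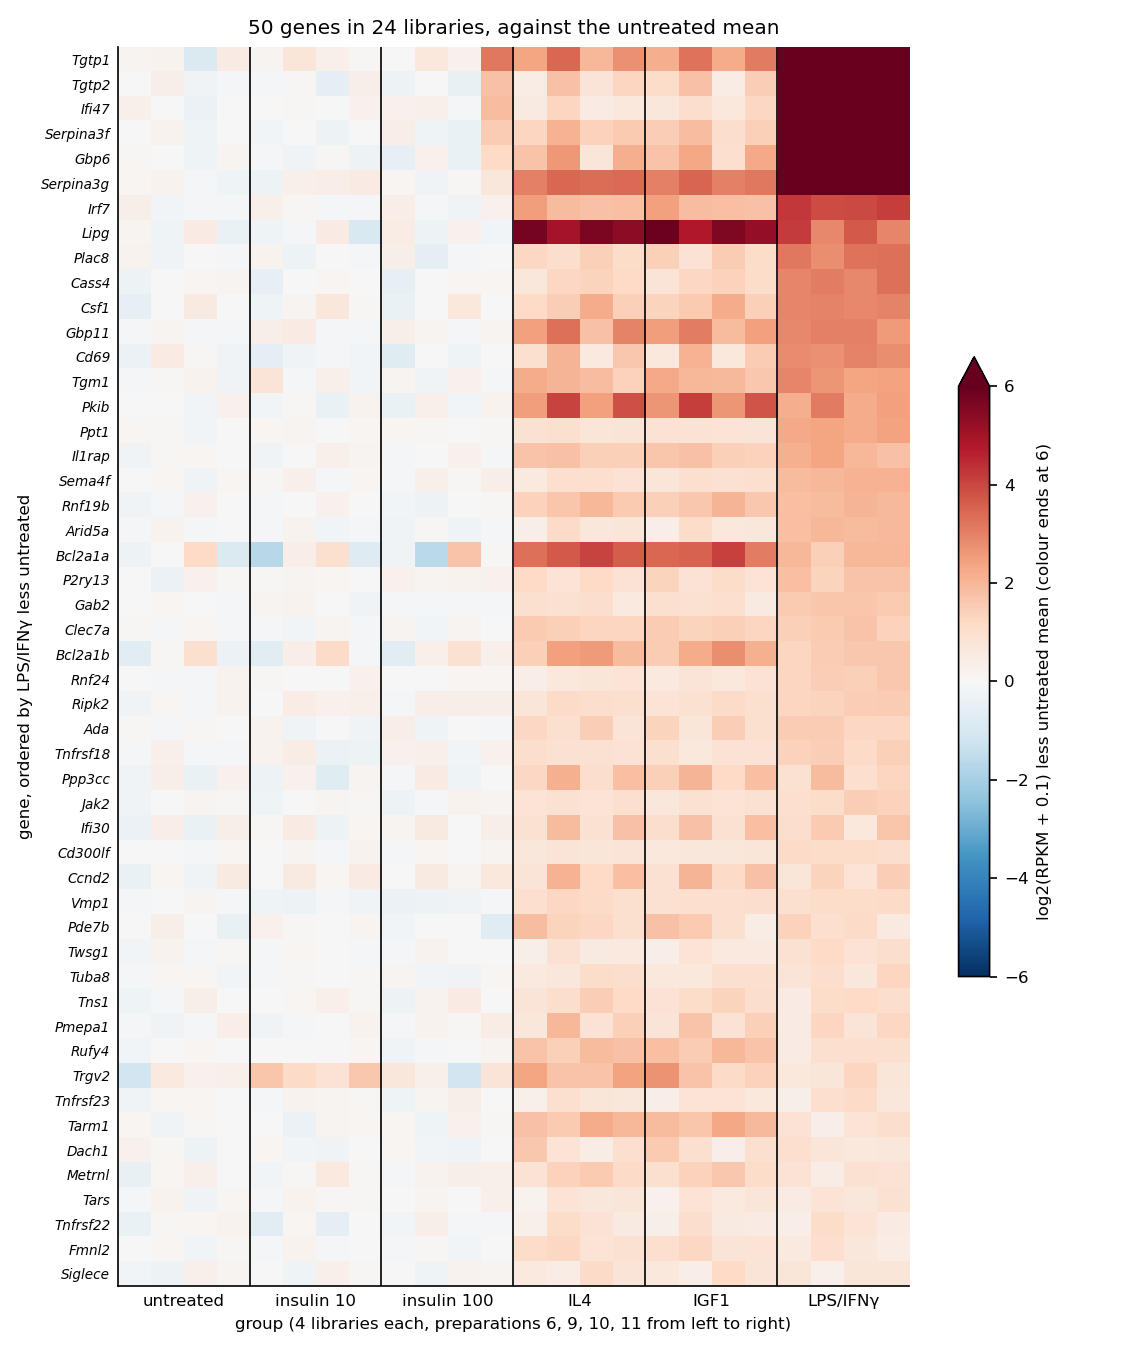
Difference of log2(RPKM + 0.1) from the untreated mean for the 50 members (rows, ordered by LPS/IFNγ less untreated) in 24 libraries (columns, 4 per group). The IL4 and IGF1 blocks look alike, 6 genes at the top exceed the colour range in LPS/IFNγ, and the last insulin 100 column is raised for the top genes.

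Of 221 genes that met the IL4 and IGF1 parts of the rule, 55 (24.9%) also met the LPS/IFNγ part, and 113 of the other 166 had an LPS/IFNγ mean below untreated. Taken alone, the LPS/IFNγ part was met by 753 genes. The median of the 10524 genes at the IL4 level was itself below untreated with LPS/IFNγ (-0.25), so a lower mean was common among all genes. The shares of all genes with a lower mean or meeting the LPS/IFNγ part are not given. The counts of 55, 113 and 753 genes are therefore a description only. The members lie on 19 chromosomes, and some are neighbours. Tgtp1, Tgtp2 and Ifi47 lie together on chromosome 11 (Tgtp2 and Ifi47 12.4 kb apart), Gbp6 and Gbp11 on chromosome 5 (29.3 kb), Serpina3f and Serpina3g on chromosome 12 (15.1 kb), Tnfrsf22 and Tnfrsf23 on chromosome 7 (16.1 kb), Bcl2a1a and Bcl2a1b on chromosome 9 (237 kb), Cd69 and Clec7a on chromosome 6 (186 kb), Cass4 and Pmepa1 on chromosome 2 (791 kb) and Tns1 and Rufy4 on chromosome 1 (1.09 kb). Tgtp1 and Tgtp2, the Serpina3, Bcl2a1, Tnfrsf22/23 and Gbp pairs are families of similar copies, so that reads may be split between copies, and their separate values are uncertain to that extent.

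The comparison of LPS/IFNγ with IL4 asks how the N1 and N2 stimuli differ in the extent to which they raise the same genes. Both groups had been used to choose the members, though not against each other. In limma across 13082 genes, called at an adjusted p under 0.05 and a difference of at least 1.5-fold, 18 of 50 members (36.0%) were higher and 5 (10.0%) lower with LPS/IFNγ than with IL4. Of all genes tested, 7.66% were called higher and 19.5% lower. Members had been selected for a rise with LPS/IFNγ, so their share is not independent of the choice. The median difference over all genes was -0.25, and 0.01 after median-of-ratios scaling, under which 11% of genes were called higher and 9.08% lower and 24 members were higher and 4 lower. The median member stood at 0.26.

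Interferon-inducible GTPases, which act against intracellular pathogens, led this comparison. Tgtp1 had 0.484, 0.504, 0.187 and 0.622 RPKM in untreated libraries, 2.58, 5.62, 1.98 and 3.41 with IL4, 2.22, 4.90, 2.35 and 4.39 with IGF1, and 396, 427, 494 and 507 with LPS/IFNγ. The IL4 and IGF1 libraries overlapped each other and lay between the untreated and the LPS/IFNγ libraries. The LPS/IFNγ level exceeded IL4 by 7.12 on the log2 scale (SE 0.28, limma adjusted p = 5.26e-07). Tgtp2 had 1.16, 1.56, 1.01 and 1.13 RPKM untreated, 1.69, 4.31, 2.15 and 3.09 with IL4, 2.71, 4.26, 1.67 and 3.47 with IGF1, and 393, 469, 445 and 485 with LPS/IFNγ. Its difference from IL4 was 7.35 (SE 0.25, limma adjusted p = 1.66e-07), as for Tgtp1 with all 4 LPS/IFNγ libraries above all IL4 libraries.

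Ifi47, another member of the immunity-related GTPase family, had the largest difference between these stimuli. Its levels were 3.21, 2.58, 1.97 and 2.58 RPKM untreated, 3.75, 6.35, 3.66 and 4.01 with IL4, 4.20, 5.34, 4.05 and 6.26 with IGF1, and 681, 837, 952 and 909.8 with LPS/IFNγ (difference from IL4 7.57, SE 0.18, limma adjusted p = 5.57e-09). The rise with IL4 was 0.22% of the LPS/IFNγ level for Ifi47, 0.36% for Tgtp2 and 0.65% for Tgtp1. Among the 16 genes with at least 100 RPKM and 50-fold above untreated in LPS/IFNγ, the median of this share was 0.04% and the range -0.48% to 1.18%. The 13 of them that are not members had a median of 0.03%. Among these, the interferon-induced chemokines Cxcl10 and Cxcl9 had -0.02% and -0.01%, while Gvin1 had 1.18%, Cd274 0.60% and Igtp 0.39%. A share of this size was thus not particular to the members.

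Gbp6, a guanylate-binding protein, had 0.130, 0.126, 0.0872 and 0.150 RPKM untreated, 0.622, 1.24, 0.271 and 0.905 with IL4, 0.624, 1.01, 0.351 and 0.977 with IGF1, and 21.5, 20.4, 24.7 and 25.3 with LPS/IFNγ. It was 4.89 higher with LPS/IFNγ than with IL4 (SE 0.35, limma adjusted p = 1.46e-05). Its neighbour Gbp11 behaved differently.

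Gbp11 had 1 read in the 4 untreated libraries together (0, 0.0140, 0 and 0 RPKM). With IL4 it had 0.474, 0.930, 0.251 and 0.707 RPKM, with IGF1 0.487, 0.769, 0.289 and 0.471, and with LPS/IFNγ 0.652, 0.727, 0.733 and 0.517, so the 3 treated groups overlapped. Per mapped read, the ratio to untreated was 146 with IL4 (95% exact interval of the counts 25.8 to 5816), 134 with IGF1 (23.5 to 5321) and 168 with LPS/IFNγ (29.7 to 6674). These intervals cover counting error only. LPS/IFNγ and IL4 differed by 0.23 (95% interval -0.47 to 0.93, limma adjusted p = 0.581).

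Irf7, the transcription factor that amplifies type I interferon production, had 5.44, 3.83, 4.15 and 3.95 RPKM untreated, 24.9, 16.5, 14.6 and 15.1 with IL4, 24.2, 15.7, 15.5 and 14.6 with IGF1, and 82.9, 66.7, 69.5 and 77.9 with LPS/IFNγ. It rose further with LPS/IFNγ than with IL4 by 2.09 (SE 0.17, limma adjusted p = 1.20e-05). Ifi30, the lysosomal thiol reductase of antigen processing, had means of 17.2 RPKM untreated, 45.4 with IL4, 45 with IGF1 and 41.0 with LPS/IFNγ, and LPS/IFNγ and IL4 differed by -0.14 (95% interval -0.85 to 0.58). Of the 7 GTPase and interferon genes, 5 were thus called higher with LPS/IFNγ and none lower.

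**Figure D3:**
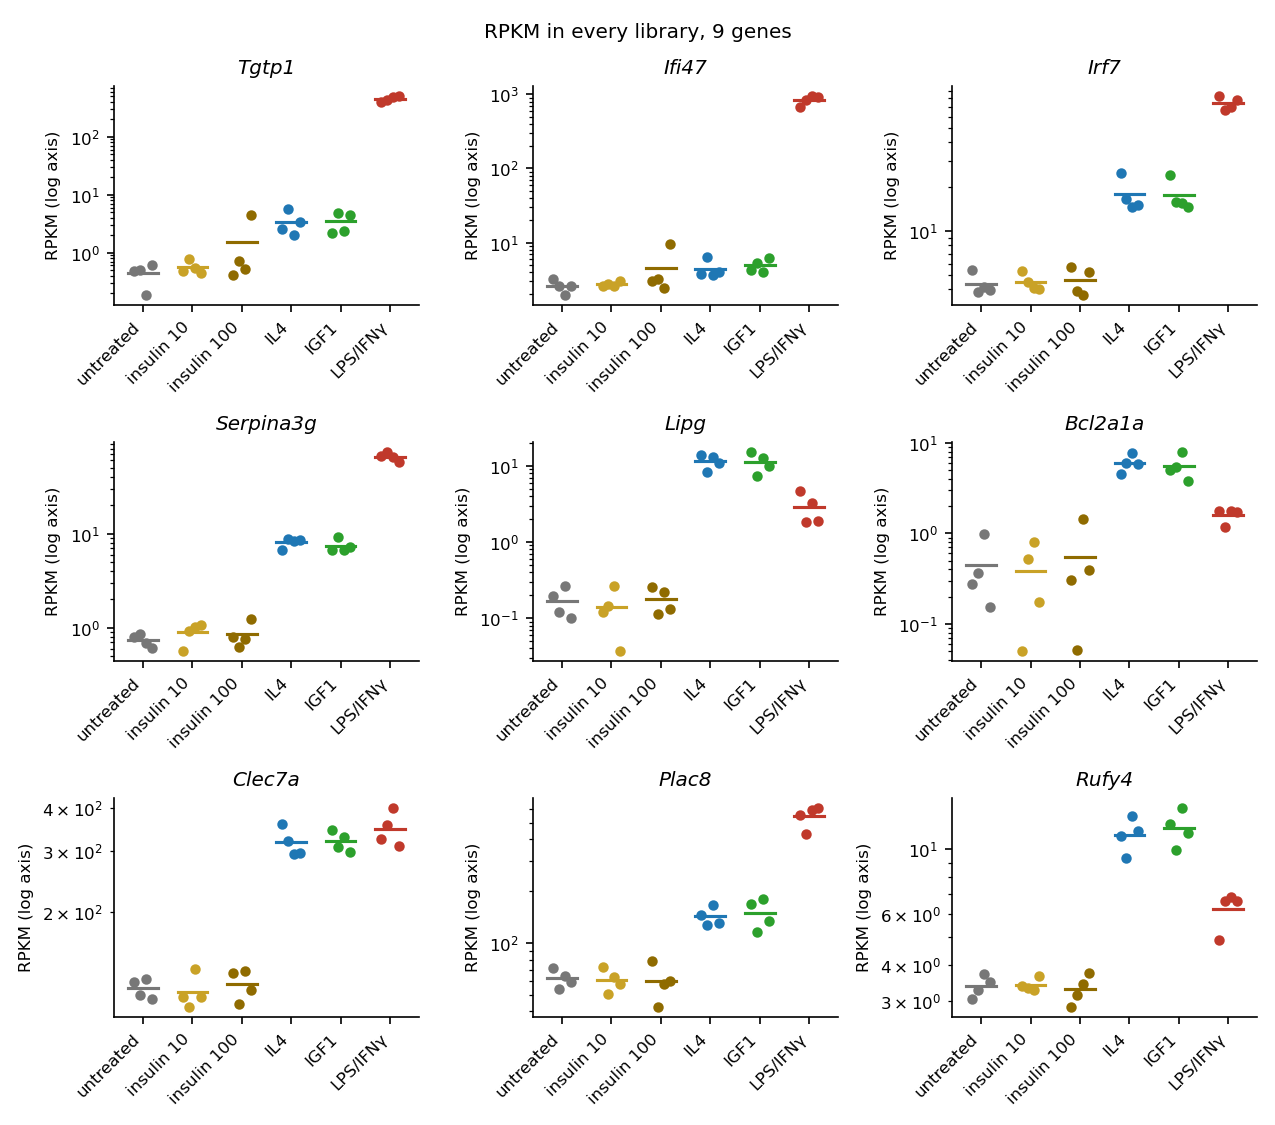
RPKM on a log axis in each of the 24 libraries for 9 members, with a bar at the mean of 4 libraries. Tgtp1, Ifi47, Irf7, Serpina3g and Plac8 are highest with LPS/IFNγ, Lipg, Bcl2a1a and Rufy4 are highest with IL4 and IGF1, and Clec7a has overlapping levels in the 3 treated groups.

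The protease inhibitors and secreted proteins went both ways. Serpina3g, an intracellular serpin that inhibits cysteine cathepsins, had 0.802, 0.857, 0.683 and 0.604 RPKM untreated, 6.65, 8.82, 8.39 and 8.61 with IL4, 6.64, 9.14, 6.74 and 7.27 with IGF1, and 66.4, 73.9, 65.6 and 57.1 with LPS/IFNγ. Its difference between LPS/IFNγ and IL4 was 3.01 (SE 0.11, limma adjusted p = 7.89e-08). Serpina3f reached about the same LPS/IFNγ level, 65.8, 67.5, 63.1 and 64.9 RPKM, from 0.299, 0.361, 0.227 and 0.296 untreated, but only 0.855, 1.57, 0.934 and 1.08 with IL4 and 0.992, 1.32, 0.722 and 0.963 with IGF1 (difference between LPS/IFNγ and IL4 5.79, SE 0.16, limma adjusted p = 7.29e-09).

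Lipg, the endothelial lipase that cleaves phospholipids of lipoproteins, had the largest rise with IL4 and IGF1 of all members. It had 0.193, 0.119, 0.264 and 0.101 RPKM untreated, 14.0, 8.33, 13 and 10.8 with IL4, 15.2, 7.30, 12.8 and 9.96 with IGF1, and 4.64, 1.85, 3.23 and 1.90 with LPS/IFNγ. All LPS/IFNγ libraries lay between the untreated and the IL4 libraries, and the difference from IL4 was -2.03 (SE 0.30, limma adjusted p = 8.18e-04).

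Csf1, the growth factor of macrophages, rose from a mean of 6.29 RPKM to 19.1 with IL4, 19.6 with IGF1 and 47.5 with LPS/IFNγ, which was called higher than IL4 (1.36, SE 0.19). Sema4f, a membrane semaphorin, had means of 1.83 RPKM untreated, 3.42 with IL4, 3.45 with IGF1 and 7.73 with LPS/IFNγ and was also called higher (1.16, SE 0.11). Metrnl, a secreted factor related to meteorin, had 5.84, 14.0, 14.1 and 9.90 RPKM in the same order, and Twsg1, which binds bone morphogenetic proteins, had 4.14, 6.32, 6.29 and 8.40 RPKM. Neither was called, with differences between LPS/IFNγ and IL4 of -0.48 (95% interval -0.85 to -0.11) and 0.41 (0.12 to 0.71).

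Among 11 surface receptor genes, 2 were called higher and 2 lower with LPS/IFNγ than with IL4. Clec7a, which encodes the β-glucan receptor dectin-1, was the most abundant member with IL4. It had 126, 116, 129 and 113 RPKM untreated, 360.1, 322, 295 and 296 with IL4, 345, 309, 329.9 and 299 with IGF1, and 326, 358, 399.7 and 311 with LPS/IFNγ. The treated groups overlapped, and LPS/IFNγ and IL4 differed by 0.13 (95% interval -0.10 to 0.36, limma adjusted p = 0.336).

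Siglece, an inhibitory sialic acid receptor, had 54.6, 49.8, 74.4 and 67.7 RPKM untreated, 90.5, 82.8, 136 and 105 with IL4, 93.3, 80.2, 140.2 and 103 with IGF1, and 99.5, 75.8, 99.9 and 102 with LPS/IFNγ. LPS/IFNγ and IL4 differed by -0.12 (95% interval -0.48 to 0.24). Its lowest treated value, 75.8 RPKM, was only just above the highest untreated value, 74.4 RPKM. Cd300lf, another inhibitory receptor of myeloid cells, had 56.5, 55.9, 55.1 and 61.5 RPKM untreated, 91.5, 98.9, 94.1 and 97.8 with IL4, 88.4, 92.7, 91.5 and 94.4 with IGF1, and 126, 122, 121 and 120.1 with LPS/IFNγ. All 4 LPS/IFNγ libraries of Cd300lf exceeded all IL4 libraries, but the difference of 0.35 (SE 0.06, limma adjusted p = 0.00154) was under 1.5-fold; after median-of-ratios scaling it was 0.65 and was called.

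Tarm1, an activating receptor of myeloid cells in mice, had 12.1, 9.60, 11.8 and 11.6 RPKM untreated, 38.2, 34.0, 52.8 and 45.5 with IL4, 41.8, 36.2, 56.4 and 43.5 with IGF1, and 20.8, 15, 19.8 and 23.1 with LPS/IFNγ. It was lower with LPS/IFNγ than with IL4 by -1.11 (SE 0.17, limma adjusted p = 5.42e-04), with no overlap. Cd69, the early activation antigen of lymphocytes, rose from a mean of 7.24 RPKM to 19.0 with IL4, 18.2 with IGF1 and 51.0 with LPS/IFNγ and was called higher than with IL4 (1.53, SE 0.28).

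P2ry13, an ADP receptor, had means of 2.05 RPKM untreated, 4.26 with IL4, 4.32 with IGF1 and 6.58 with LPS/IFNγ. It was called higher with LPS/IFNγ (0.61, SE 0.14), but at 0.55 to 0.56 not without the IL4 library of preparation 9 or 11 or the LPS/IFNγ library of preparation 6, nor with a pseudocount of 1 (0.52). Il1rap, the shared signalling chain of the IL1, IL33 and IL36 receptors, had means of 2.32, 7.20, 7.04 and 10.1 RPKM in the order untreated, IL4, IGF1 and LPS/IFNγ, and was not called (0.47, 95% interval 0.16 to 0.78). The TNF receptor family genes Tnfrsf18 (GITR, a costimulatory receptor of T cells), Tnfrsf22 and Tnfrsf23 (both decoy receptors for TRAIL in mice) had means of 2.40, 1.48 and 6.17 RPKM with IL4 and 3.23, 1.46 and 6.87 RPKM with LPS/IFNγ, with differences of 0.41, -0.02 and 0.14 that were not called.

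Trgv2, a variable segment of the T cell receptor γ chain, rested on few reads. It had 0, 0.230, 0.163 and 0.173 RPKM untreated, 1.04, 0.612, 0.611 and 1.08 with IL4, 1.33, 0.615, 0.396 and 0.478 with IGF1, and 0.244, 0.266, 0.435 and 0.263 with LPS/IFNγ, from 7, 36, 31 and 14 reads per group. It was called lower with LPS/IFNγ than with IL4 (-1.20, SE 0.24, limma adjusted p = 0.00309), but not with a pseudocount of 1 (-0.49). Per mapped read, the ratio to untreated was 5.61 with IL4 (95% exact interval of the counts 2.46 to 14.9), 4.89 with IGF1 (2.11 to 13.2) and 1.99 with LPS/IFNγ (0.751 to 5.82), and the last interval includes no change. The sum of 9 T and NK cell markers was 17.3 to 25.5 RPKM with IL4, 13.2 to 19.2 untreated and 8.0 to 15.5 with LPS/IFNγ; of them, Cd8a and Gzma were called higher with IL4 and IGF1 and Cd3d and Ncr1 lower with LPS/IFNγ than untreated. Their part in the Trgv2 values was not tested.

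**Figure D4:**
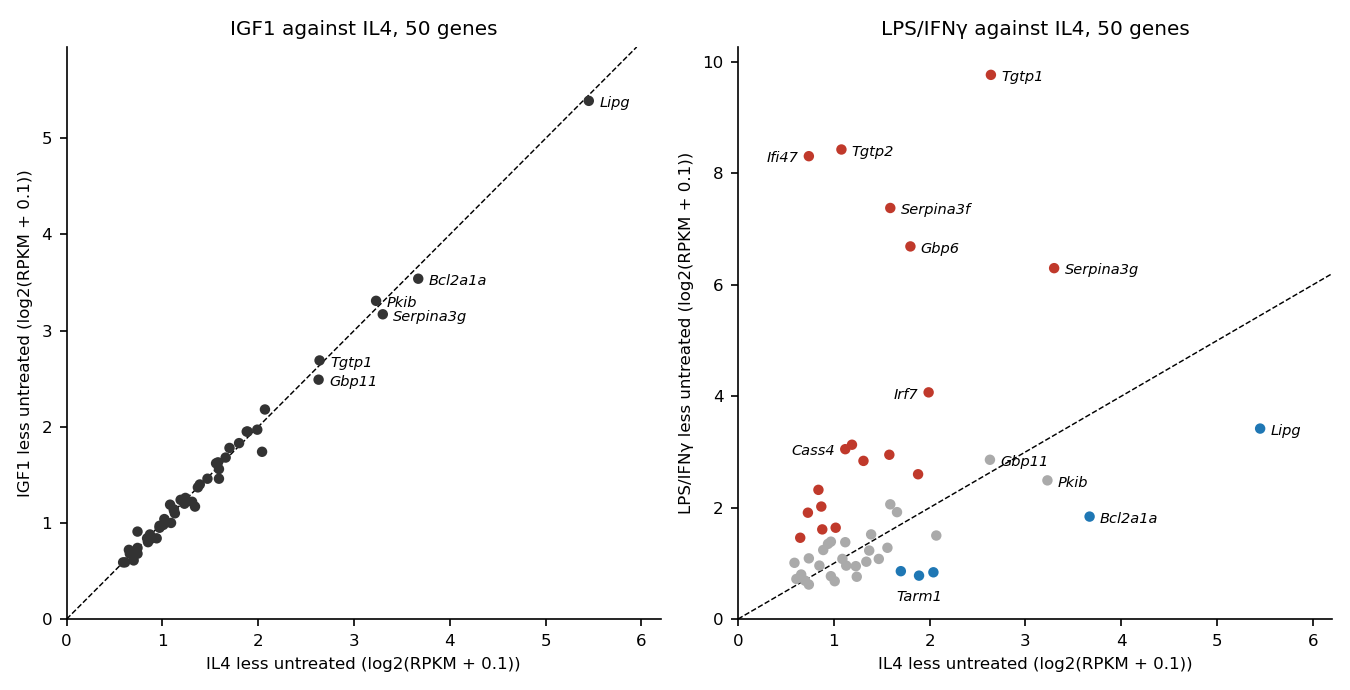
Difference from untreated on the log2(RPKM + 0.1) scale for the 50 members, with IL4 on the horizontal axis and IGF1 (left) or LPS/IFNγ (right) on the vertical axis, and a dashed line of equality. The IGF1 points follow the line, while on the right 18 genes called higher with LPS/IFNγ than with IL4 are red, 5 called lower are blue and 27 not called are grey.

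Of 12 genes of signalling and gene control, 4 were called higher with LPS/IFNγ than with IL4 and none lower. Rnf19b, a ubiquitin ligase of natural killer cells and macrophages, was the second most abundant member with IL4. It had 39.4, 44.2, 56.2 and 46.8 RPKM untreated, 122, 148, 183 and 139.7 with IL4, 126, 144, 189.5 and 142 with IGF1, and 162, 173, 189 and 177 with LPS/IFNγ (difference between LPS/IFNγ and IL4 0.26, 95% interval -0.01 to 0.53). The treated groups of Rnf19b overlapped.

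Pkib, an inhibitor of protein kinase A, had 0.0696, 0.0700, 0.0542 and 0.111 RPKM untreated, 0.898, 2.84, 0.874 and 2.47 with IL4, 1.01, 3.01, 0.997 and 2.32 with IGF1, and 0.683, 1.43, 0.710 and 0.871 with LPS/IFNγ. Preparations 9 and 11 were high with both IL4 and IGF1. In every preparation the LPS/IFNγ library was below the IL4 library. The difference of -0.74 was not called across groups (SE 0.42, limma adjusted p = 0.186), and was called with the preparation as a block (limma adjusted p = 0.0232).

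Jak2, the kinase that IFNγ, growth hormone and GM-CSF receptors share, had means of 33.2 RPKM untreated, 61.5 with IL4, 59.5 with IGF1 and 78.8 with LPS/IFNγ. LPS/IFNγ exceeded IL4 by 0.35 (95% interval 0.09 to 0.61), which was not called. Cass4, a docking protein of the Cas family (3.13, 6.96, 7.02 and 26.5 RPKM in the order untreated, IL4, IGF1 and LPS/IFNγ), and Arid5a, which stabilises inflammatory messenger RNAs (5.68, 9.65, 9.38 and 21.5 RPKM), were called higher with LPS/IFNγ, by 1.93 (SE 0.16) and 1.18 (SE 0.15). Gab2, an adaptor of PI3K signalling (9.19, 17.0, 16.8 and 28.2 RPKM), and Rnf24, a ring finger protein (2.41, 3.84, 4.03 and 6.79 RPKM), were called higher by 0.74 and 0.81.

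The remaining signalling genes were not called between these groups. Ripk2, the kinase downstream of NOD receptors, had 1.87, 3.75, 3.71 and 5.05 RPKM in the same order of groups. Ppp3cc, a catalytic subunit of calcineurin, had 2.42, 7.47, 7.63 and 6.11 RPKM. Pde7b, a cAMP phosphodiesterase, had 0.186, 0.628, 0.571 and 0.484 RPKM, Pmepa1, a TGFβ-induced membrane protein that dampens SMAD signalling, had 0.219, 0.689, 0.649 and 0.525 RPKM, and Dach1, a transcriptional repressor, had 9.37, 19.2, 19.1 and 16 RPKM.

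The 2 survival genes of the BCL2 family had lower means with LPS/IFNγ than with IL4. Bcl2a1a, a copy of the antiapoptotic gene A1 that NF-κB induces in many leukocytes, had 0.279, 0.367, 0.975 and 0.155 RPKM untreated, 4.52, 5.93, 7.70 and 5.81 with IL4, 4.96, 5.37, 7.95 and 3.84 with IGF1, and 1.75, 1.17, 1.76 and 1.74 with LPS/IFNγ. It was lower with LPS/IFNγ than with IL4 by -1.83 (SE 0.18, limma adjusted p = 4.45e-05), with no overlap. Its copy Bcl2a1b had means of 4.96 RPKM untreated, 20.2 with IL4, 21.7 with IGF1 and 13 with LPS/IFNγ, and a difference of -0.58 (95% interval -1.11 to -0.04) that was not called.

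Rufy4, which promotes autophagosome formation, had 3.04, 3.26, 3.72 and 3.48 RPKM untreated, 11.1, 9.31, 13 and 11.6 with IL4, 12.2, 9.92, 13.9 and 11.4 with IGF1, and 4.85, 6.64, 6.85 and 6.65 with LPS/IFNγ (difference between LPS/IFNγ and IL4 -0.84, SE 0.14, limma adjusted p = 9.87e-04). After median-of-ratios scaling the difference was -0.55 and was not called. Its neighbour Tns1, a focal adhesion protein, had 0.405, 1.01, 0.980 and 0.890 RPKM in the order untreated, IL4, IGF1 and LPS/IFNγ.

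Plac8, a small cysteine-rich protein of myeloid cells, had the highest LPS/IFNγ level outside the GTPases. It had 71.8, 54.2, 64.0 and 59.3 RPKM untreated, 146, 127, 167 and 131 with IL4, 168, 115, 179.7 and 134 with IGF1, and 557, 427, 596 and 609 with LPS/IFNγ (difference from IL4 1.93, SE 0.13, limma adjusted p = 4.42e-06). Ppt1, the lysosomal thioesterase that removes palmitate from proteins, rose from a mean of 13.7 RPKM to 24.5 with IL4, 24.4 with IGF1 and 68.7 with LPS/IFNγ, which exceeded IL4 by 1.48 (SE 0.08).

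Tgm1, the transglutaminase that crosslinks the cornified envelope of skin, had 0.380, 0.437, 0.478 and 0.339 RPKM untreated, 2.26, 2.00, 1.75 and 1.20 with IL4, 2.35, 1.89, 1.86 and 1.44 with IGF1, and 3.8, 3.11, 2.54 and 2.61 with LPS/IFNγ. It was called higher with LPS/IFNγ (0.73, SE 0.20, limma adjusted p = 0.0155), but not without the IL4 library of preparation 11 (0.56) or with a pseudocount of 1 (0.52). Ada, the adenosine deaminase of purine breakdown, had means of 5.99, 13.3, 13.4 and 15.8 RPKM in the order untreated, IL4, IGF1 and LPS/IFNγ.

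The other members of this last set were not called between LPS/IFNγ and IL4. Vmp1, an endoplasmic reticulum protein needed for autophagy, had means of 10.9, 23.3, 21.8 and 23.2 RPKM in the same order, and its difference of -0.00 had the narrow interval of -0.20 to 0.19. Ccnd2, the cyclin D2 of G1 phase, had 1.56, 4.62, 4.56 and 3.37 RPKM, and Tuba8, an α-tubulin, had 3.22, 5.94, 5.68 and 6.40 RPKM. Fmnl2, a formin that elongates actin filaments, had 18.7, 38.0, 37.1 and 30.1 RPKM, and Tars, the threonyl-tRNA synthetase, had 9.24, 14.2, 14.0 and 15.3 RPKM.

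IGF1 was set against IL4 because the study asked whether IGF1 gives neutrophils an IL4-like state. Among 50 members, 0 were called in limma on 13080 genes, and 0% of all genes tested were called in either direction. Differences of the members ran from -0.30 (Trgv2) to 0.17 (Ifi47), 0 of them had an unadjusted p under 0.05, the smallest adjusted p was 1.000, and limma voom on recovered reads also called 0. The 95% interval lay within 1.5-fold either way for 30 members and within 2-fold for 46. The widest reach was for Cd69, down to -1.09, and Pkib, up to 1.25. With the preparation as a block, limma called 0 members, 0 had an unadjusted p under 0.05, and the intervals were narrower, within 1.5-fold for 49 members and within 2-fold for all 50. Cd69 then had -0.09 (95% interval -0.26 to 0.08) and Pkib 0.08 (-0.12 to 0.28), and the lowest bound was that of Trgv2, at -0.85. Both groups had been used to choose the members.

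IL4 and IGF1 libraries of 1 preparation also shared their order. In 39 of 50 members (78%) the same preparation was highest in both groups, against 59.6% of the 10524 genes at that level. For 16 members (32.0%, against 8.20% of those genes), preparations 9 and 11 exceeded 6 and 10 in both groups. Both groups had been used to choose the members, so the shares of members in this paragraph are not independent of the choice. Cd69 had 14.0, 29.2, 10.7 and 21.9 RPKM with IL4 and 10.9, 30.6, 10.9 and 20.5 RPKM with IGF1. Ccnd2 had 2.67, 6.63, 3.63 and 5.53 RPKM with IL4 and 2.93, 6.59, 3.42 and 5.30 RPKM with IGF1. This order was not particular to IL4 and IGF1 for every gene. Untreated libraries of Ccnd2 (1.10, 1.65, 1.27 and 2.20 RPKM), Ifi30, Ppp3cc, Arid5a, Tars and Twsg1 had it as well. So did, by small margins, those of Pkib (0.0696, 0.0700, 0.0542 and 0.111 RPKM) and Tgtp1 (0.484, 0.504, 0.187 and 0.622 RPKM). Those of Cd69 (5.41, 10.0, 7.48 and 6.05 RPKM) and Gbp6 did not. With IL4 and IGF1, Pkib, Ppp3cc, Ifi30, Tgtp1 and Gbp6 had this order too, while Lipg, Ada, Plac8, Gab2, P2ry13 and Tnfrsf18 were higher in preparations 6 and 10 (6 members, 12%, against 4.07%). The commonest order over all genes, 9 and 10 above 6 and 11, held for 8 members (16%, against 21.3%).

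The summed B lineage markers were 245 to 301 RPKM in preparation 9, 182 to 213 in 11, 167 to 191 in 6 and 104 to 131 in 10 over all 6 groups. The summed erythroid markers were 4587 to 6159 RPKM in preparation 9, 1863 to 3213 in 6, 1197 to 1559 in 10 and 593 to 677 in 11. The part of these cells in the order of the preparations was not tested.

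Insulin, tested at a low and a high dose beside IGF1, left the members near the untreated level. At 10 ng/mL, 0 of 48 members tested were called in limma on 13055 genes (0% of all genes called), 2 had an unadjusted p under 0.05 (Trgv2 and Vmp1), and the differences ran from -0.28 to 1.33 with a median of 0.03. At 100 ng/mL, 0 of 48 were called on 13108 genes (0%), 1 had an unadjusted p under 0.05 (Vmp1), and the differences ran from -0.25 to 1.00 with a median of 0.06. Between the doses 0 of 48 were called on 13112 genes (0%), and 1 had an unadjusted p under 0.05 (Trgv2). The smallest adjusted p was 1.000 in all 3 comparisons, and limma voom on recovered reads also called 0 members in each. Over all genes, 174 of 13055, 321 of 13108 and 565 of 13112 had an unadjusted p under 0.05 in these limma fits. The fit with the preparation as a block called 0 members as well. In it, 6 members had an unadjusted p under 0.05 at 10 ng/mL (Bcl2a1b, Ccnd2, Csf1, Ripk2, Trgv2 and Vmp1), 5 at 100 ng/mL (Ccnd2, Ifi30, Metrnl, Ripk2 and Vmp1) and 2 between the doses (Ifi30 and Trgv2). The share over all genes is not given for the block fit, so these counts are a description only. The untreated libraries had served as the low side of the choice of members, and the insulin libraries had no part in it.

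Gbp11 and Pkib were too low to be tested here. Gbp11 had 5 reads in the 4 libraries at 10 ng/mL and 4 at 100 ng/mL, and Pkib had 0.0691 and 0.0781 RPKM at these doses, against 0.0763 RPKM untreated. Trgv2 had 0.590, 0.394, 0.309 and 0.576 RPKM at 10 ng/mL and 0.258, 0.174, 0 and 0.279 at 100 ng/mL, from 0 to 7 reads a library. The difference from untreated at 10 ng/mL was 1.33 (95% interval 0.48 to 2.18, limma adjusted p = 1.000). Vmp1 had 9.22, 8.92, 10.4 and 9.35 RPKM at 10 ng/mL and 8.47, 8.77, 9.38 and 10.4 at 100 ng/mL, against 10.4, 10.7, 12.3 and 10.2 untreated, so the groups overlapped. Within preparations Vmp1 was lower than untreated in all 4 at 10 ng/mL, and with the preparation as a block the difference was -0.20 (95% interval -0.31 to -0.09, limma adjusted p = 0.858).

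Without the block, the 95% interval lay within 1.5-fold for 33 of 48 members at 10 ng/mL and for 32 at 100 ng/mL. With the preparation as a block, this held for 39 members at each dose. The interval was wide for Bcl2a1a, which reached from 0.0505 to 0.802 RPKM at 10 ng/mL and from 0.0521 to 1.46 RPKM at 100 ng/mL, on 1 to 29 reads a library.

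**Figure D5:**
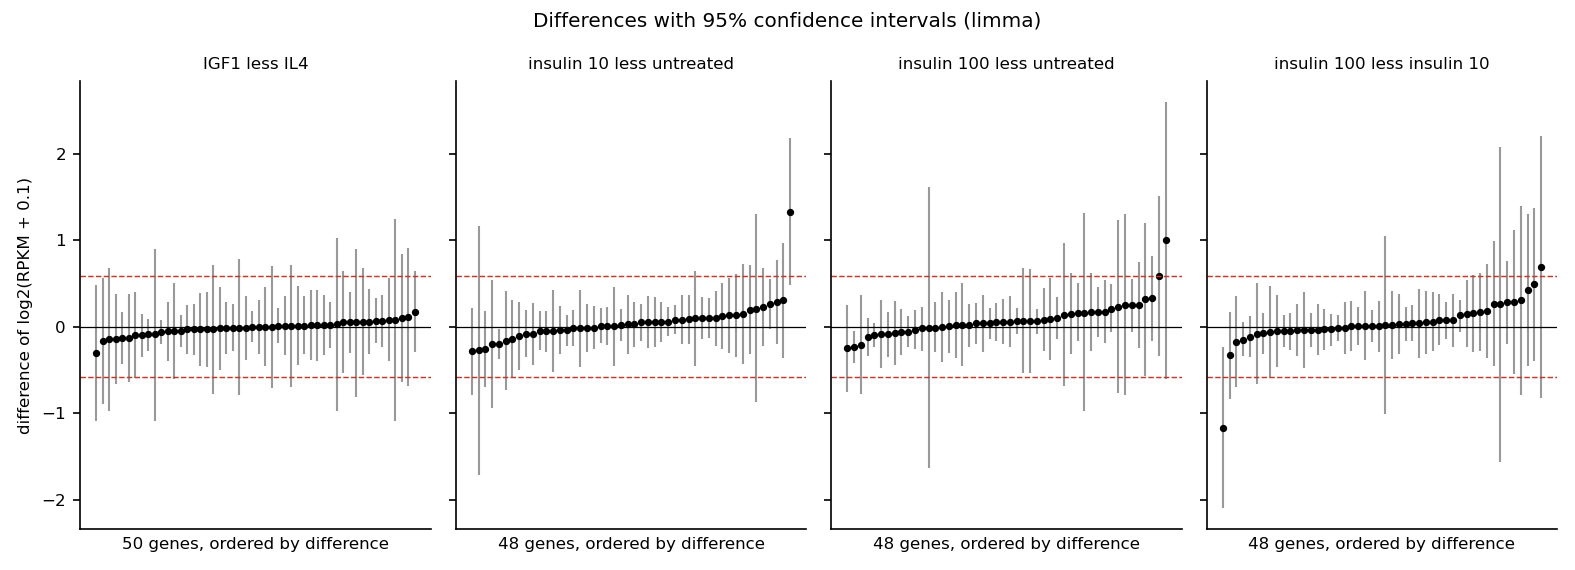
Differences of log2(RPKM + 0.1) of the members (points, ordered by size) with 95% confidence intervals from limma without the block (bars) for IGF1 less IL4, insulin 10 or 100 ng/mL less untreated, and insulin 100 less 10 ng/mL. Dashed lines mark 1.5-fold, and no gene was called in any panel.

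With both doses pooled, the insulin values of all 50 members overlapped the untreated range. At 10 ng/mL alone, all 4 libraries of Trgv2 (0.309 to 0.590 RPKM) lay above the highest untreated library (0.230 RPKM), and the other 49 members overlapped. Ranges of so few libraries overlap readily, and the share of all genes that overlap is not given. The overlap counts are therefore a description only. For 39 members (78%) all 12 IL4, IGF1 and LPS/IFNγ libraries lay above all 8 insulin libraries, against 0.646% of the 10524 genes, and this share is tied to the choice of genes high in those 12 libraries. Without the insulin 100 ng/mL library of preparation 11 it was 44 members. The 5 members that this library alone kept out were Tgtp1, Tgtp2, Ifi47, Gbp6 and Serpina3f. Tgtp1 had 0.408, 0.706, 0.516 and 4.52 RPKM at 100 ng/mL, and its difference from untreated was 1.00 (SE 0.69) with this library and 0.28 (SE 0.33) without it. Ifi47 had 3.04, 3.21, 2.41 and 9.45 RPKM, and its difference was 0.59 (SE 0.40) with and 0.16 (SE 0.17) without it. Tgtp2 had 0.947, 1.21, 0.858 and 4.30 RPKM, and its difference turned from 0.25 (SE 0.46) with this library to -0.25 (SE 0.18) without it.

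Other genes of the JAK/STAT pathway give the setting of Jak2 and of the STAT-type motifs. Of 60 listed components, receptors and feedback genes, Jak2 is a member and 58 others were tested. With IL4, 7 were called higher than untreated and 0 lower, where 1.62% and 0.0458% of 13097 genes were called. With IGF1, 7 were called higher and 0 lower, where 1.57% and 0.0535% of 13093 genes were. With LPS/IFNγ, 22 were called higher and 2 lower, where 8.15% and 17.8% of 13062 genes were. Cish, Socs1 and Socs3 are among those called higher in each comparison. They meet the rule of the members on these same libraries and were left out by name, so the counts are not independent of that rule. The count with IL4 was 4 without the IL4 library of preparation 10, and without that preparation it was 2 with IL4 and 2 with IGF1. These fits held fewer libraries, and the share of all genes called in them is not given. The lower counts are therefore a description only.

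With IL4 the genes called at the smallest adjusted p were Cish, a STAT5-induced feedback inhibitor (2.52, SE 0.19, limma adjusted p = 1.93e-04), Ifngr1, the ligand-binding chain of the IFNγ receptor (0.78, SE 0.09), Csf2rb, the shared β chain of the GM-CSF, IL3 and IL5 receptors (0.59, SE 0.07), and Batf3, a basic leucine zipper factor (2.31, SE 0.30). With IGF1 they were Cish (2.58, SE 0.19), Batf3 (2.23, SE 0.22), Ifngr1 (0.80, SE 0.09) and Socs3, a feedback inhibitor of cytokine receptors (1.75, SE 0.23). Csf2rb had much the same value with IGF1 (0.58, SE 0.06, limma adjusted p = 0.00113) but lay just under 1.5-fold and so was not called. Those called with LPS/IFNγ included Irf1 (4.45, SE 0.05), Stat2 (3.72, SE 0.08) and Batf2, which was listed at 0 in untreated libraries and had a mean of 7.31 RPKM with LPS/IFNγ. Ifngr1 had means of 38.4 RPKM untreated, 66.1 with IL4, 67.3 with IGF1 and 25.7 with LPS/IFNγ. Stat6 itself was not called with IL4 (-0.05, SE 0.09) or IGF1 (-0.06, SE 0.08).

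Of 28 genes of NF-κB subunits, inhibitors and feedback, 1 was called higher with IL4 and with IGF1, Map3k14, the NF-κB inducing kinase (0.89, SE 0.12, and 0.88, SE 0.11), while 17 were called higher and 2 lower with LPS/IFNγ. Map3k14 was among the 2 that fell with LPS/IFNγ, by 0.63 (SE 0.11). Of 16 tested BCL2 family and survival genes outside the members, Bcl2 itself was called higher with IL4 (1.35, SE 0.22) and IGF1 (1.33, SE 0.23), and 3 were called higher and 3 lower with LPS/IFNγ. Of the ERK immediate early and feedback genes, 2 of 21 were called higher with IGF1, Jund (0.74, SE 0.13) and Egr2 (1.60, SE 0.29), and 7 of 22 higher and 1 lower with LPS/IFNγ. None passed with IL4, where Egr2 had a difference of 1.52. Jund had means of 30.3 RPKM untreated, 46.6 with IL4 and 50.5 with IGF1, so it was higher with IL4 too. Egr2 also meets the rule of the members and was left out by name. Beside the counts of these lists, 1.62% of all genes were called higher with IL4 and 1.57% with IGF1. With LPS/IFNγ, 8.15% of all genes were called higher and 17.8% lower.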

How the data were processed

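RNA sequencing of 24 libraries was analysed. The authors trimmed the reads, mapped them to GRCm38 with CLC Genomics Workbench and deposited RPKM values. The submitters' processing notes name bcl2fastq 2.17.1.4. The sources used here do not say whether reads were counted by strand. Positions came from GENCODE M21 and promoters from RefSeq. A result for 1 listed gene is not reported here.

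Members, gene lists and tests were chosen with earlier results of these data known. The named members were, by rule, the 10 with the largest smallest difference, the 5 most raised and 5 most lowered with LPS/IFNγ against IL4, the 5 highest with IL4, and any called with IGF1 or insulin. Tests used log2(RPKM + 0.1), genes of at least 0.1 RPKM in at least 4 of 8 libraries, and limma 3.58.1 with trend and robust settings (R 4.3.3, statmod 1.5.0), with Benjamini-Hochberg adjustment over all genes. The fit was tested on simulated data. Mapped reads per library were recovered from steps of the deposited RPKM; of 21058 genes above 0, 14720 came out whole at the annotated length (within 0.0001 reads) and 6338 at a fitted length. These reads served the voom alternative.

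Numbers 6, 9, 10 and 11 stand in the deposited file headers. After removal of group means, the 60 same-number pairs of libraries correlated at a median of 0.42 (lowest 0.18) and the 180 others at -0.12, so the numbers pair the libraries. Each number also covers consecutive library names, so a preparation and a batch of libraries cannot be told apart.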

Additional observations from a re-analysis of the deposited data

Results flagged for a closer look

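Among 300 sets of 4 libraries (50 genes in 6 groups), 13 (4.33%) held a library whose gap to the nearest other exceeded Dixon's critical share of the whole range, where chance flags about 1 in 20. With LPS/IFNγ, the library of preparation 9 was low for Bcl2a1a (1.17 RPKM), Metrnl (7.78 RPKM) and Siglece (75.8 RPKM), the library of preparation 6 was low for Rufy4 (4.85 RPKM), and the library of preparation 10 was high for Trgv2 (0.435 RPKM). With IL4, Ifi47 was high in preparation 9 (6.35 RPKM), and with IGF1, Irf7 was high in preparation 6 (24.2 RPKM). In untreated cells, preparation 9 was high for Tnfrsf18 (1.53 RPKM) and for Gbp11 (0.0140 RPKM, a single read), and preparation 11 for Pmepa1 (0.311 RPKM). With insulin at 100 ng/mL, preparation 6 was low for Cass4 (2.15 RPKM) and Ripk2 (1.77 RPKM) and preparation 10 for Tnfrsf18 (1.08 RPKM). The causes were not tested.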

How the results depend on the processing

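Median-of-ratios scaling gave 61 members (47 of the 50 among them), a pseudocount of 1 gave 39, and leaving out each library gave 44 to 61. Judging the rise within preparations (replicate block) in place of separated groups gave 78 members, all 50 among them, and leaving out preparation 10, an alternative chosen after the data were seen, gave 73, with 48 of the 50. For JAK/STAT genes outside the members, the calls with IL4 were 2 without preparation 10 and 4 to 8 when each library was left out, and with IGF1 they were 2 without preparation 10. The share of all genes called in these smaller fits is not given. Calls of members between LPS/IFNγ and IL4 stayed within 1.5 times of 23, and no difference of a called member reversed under the alternatives run. With preparation as a replicate block, Pkib was the single member whose call changed, while calls over all genes went from 218 to 345 with IL4 and from 213 to 356 with IGF1. Of members not called, Cd300lf, Il1rap, Jak2, Ripk2, Tnfrsf18 and Twsg1 were called after median-of-ratios scaling (0.64 to 0.76), and Bcl2a1b (-0.79) and Metrnl (-0.61) without the IL4 library of preparation 6. Genes with few reads, Gbp11, Trgv2 and Bcl2a1a, limit what can be read from single libraries.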
